A study of Homo sapiens with 4 samples.

Results

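The NRF2 pathway was followed through 9 genes, the transcription factor gene NFE2L2 (which encodes NRF2), its inhibitor KEAP1 and the target genes HMOX1, NQO1, GCLM, GCLC, TXNRD1, SRXN1 and OSGIN1. The genes were chosen by name, as the rows of the count tables that carry these symbols on primary chromosomes, and all 9 were found among the 63677 genes listed and among the 15398 genes with enough reads to be tested. The libraries are RNA-seq of IMR90, a line of human lung fibroblasts that can divide only a limited number of times. Cells of 2 isolates of the line, I90-10 and I90-79, were transfected with a non-targeting control siRNA or with siRNA against HMGB1, a chromatin protein, and collected after 72 h. Each group therefore has 2 libraries, replicate 1 from I90-10 and replicate 2 from I90-79, and both groups were transfected. Control libraries had totals of 29869338 (I90-10) and 35317010 (I90-79) reads counted on genes, and knockdown libraries had 29861687 and 31086475.

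NRF2 is made all the time and destroyed nearly as fast, because KEAP1 binds it and hands it to a ubiquitin ligase built on cullin 3. Oxidants and electrophiles modify KEAP1, and NRF2 then accumulates, pairs with small MAF proteins in the nucleus and switches on genes that carry an antioxidant response element. Its targets make glutathione and thioredoxin reductase, break down haem, store iron, supply NADPH and disarm reactive carbonyls and quinones, and in fibroblasts these enzymes set the tolerance to oxidative stress.

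The HMGB1 transcript was strongly reduced in both isolates, with 181 CPM (the counts of a gene divided by those of its scaled library and multiplied by 1e6) and 237 CPM in the control libraries against 15.95 CPM and 18.8 CPM in the knockdown libraries. This is a log2-fold change of −3.59 with a standard error of 0.19 (edgeR adjusted p = 0.00751, 2 against 2 libraries). The cells carried the fibroblast label, since all 12 fibroblast markers were counted, led by COL1A1. Their summed level was 51471 and 44641 CPM in the control and knockdown libraries of I90-10, and 26997 and 27693 CPM in those of I90-79. Of 7 endothelial markers 6 were matched to a gene ID, all but PECAM1, and among these CDH5 and ERG had 0 counts in every library, and TEK made up nearly all of the summed 150, 149, 136 and 136 CPM. The 8 epithelial markers, led by EPCAM, and the 9 blood cell markers, led by CSF1R, summed to less than 1 CPM in each library, with 4 and 3 genes at 0. With the isolate as a replicate block, 6.68% of all genes tested were called up and 7.84% were called down. Of the 12 fibroblast markers, 1 was called up (LUM) and 3 were called down (FN1, PDGFRB and THY1), and of the 3 endothelial markers tested 1 (VWF) was called up. The part of these shifts in the values below was not tested, and in such bulk samples fewer cells and less RNA per cell cannot be told apart.

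Upon HMGB1 knockdown TXNRD1 was at 0.238 and 0.331 of its control level in the isolates, and HMOX1, OSGIN1, SRXN1 and KEAP1 were higher by log2-fold changes of 0.87, 0.71, 0.63 and 0.46. The other 4 members lay between −0.21 and 0.38. The call required both an adjusted p under 0.01 and a log2-fold change beyond 0.6 in either direction. Without a term for the isolate 0 of the 9 members were called by edgeR's quasi-likelihood test, which called 0.201% of all genes tested, and 4 members had an unadjusted p below 0.05 (28.3% of all genes). With the isolate as a replicate block, HMOX1 and OSGIN1 were upregulated and TXNRD1 was downregulated, where 6.68% and 7.84% of all genes tested were called in these directions and 14.5% in either. DESeq2 without the block called 2 members, OSGIN1 and TXNRD1, and 11.3% of the 13606 genes to which it gave an adjusted p. After normalization by RUVs, DESeq2 called 2 members, HMOX1 and TXNRD1, and 12.3% of 13009 such genes. In 6 members both knockdown libraries lay above both control libraries, a pattern of 29.8% of all genes tested, and in 2 members they lay below, a pattern of 30.2%. The median log2-fold change of the members was 0.38, beside −0.0054 over all genes tested, and it was 0.25 after RUVs and 0.23 without knockdown replicate 2. By permutation of 2 against 2 libraries without regard to the isolate, the smallest two-sided p that can be had is 0.333. With the isolates kept as pairs fewer permutations remain, and the smallest p is larger still. Also, nothing in the labels says that the libraries are more than 1 culture of each isolate, so the p-values measure the spread between these libraries.

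**Figure D1:**
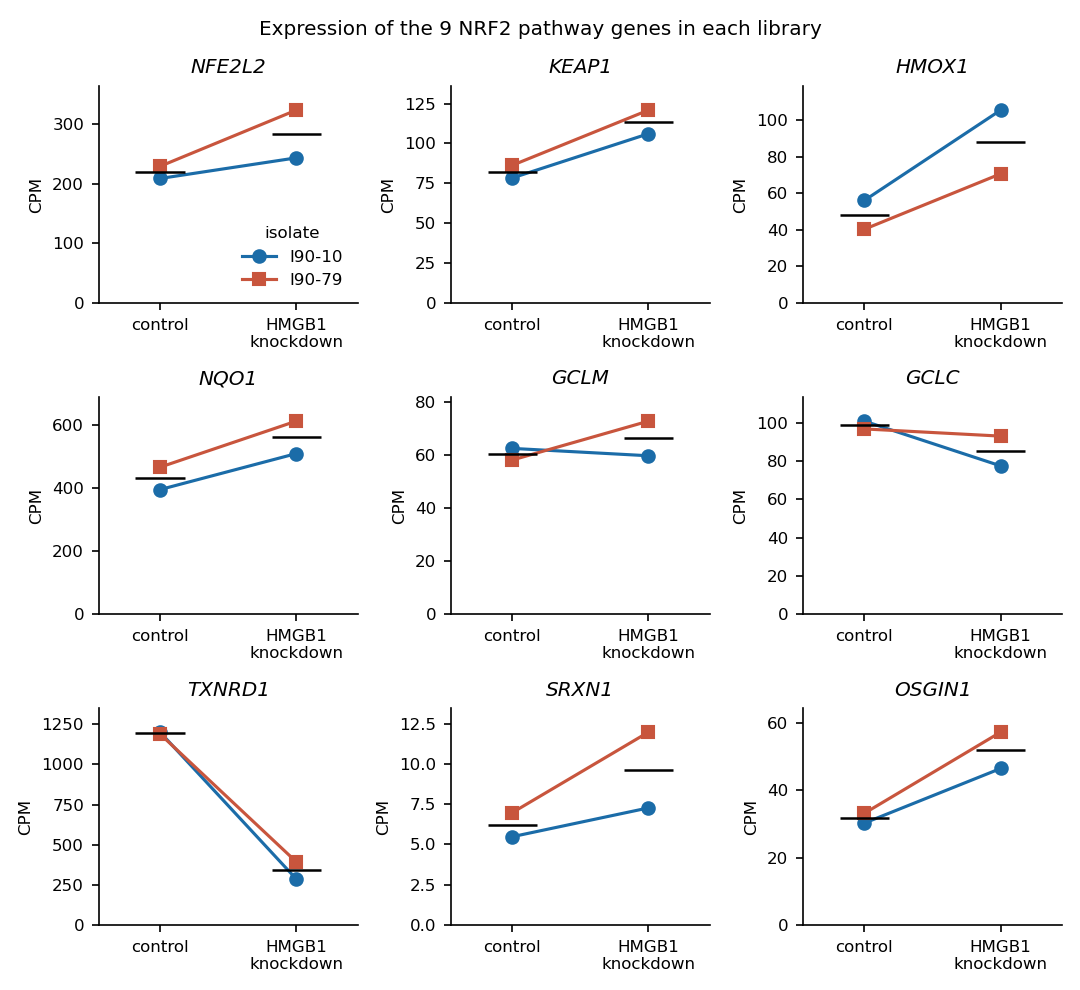
Expression of the 9 genes in CPM (vertical axes, each from 0) in the control and HMGB1 knockdown libraries, with lines joining the libraries of 1 isolate (circles I90-10, squares I90-79) and short bars for the group means. TXNRD1 goes from 1201 and 1189.7 CPM to 286 and 393 CPM, while HMOX1 and OSGIN1 are higher after the knockdown in both isolates and the lines of GCLM cross.

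**Figure D2:**
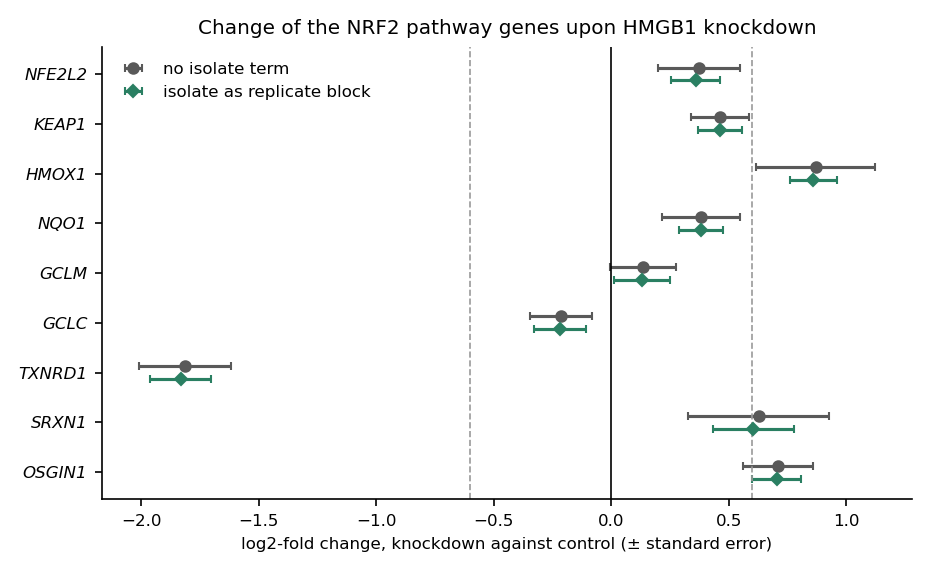
Log2-fold change of each gene, knockdown against control, with its standard error as a bar, from the test without an isolate term (circles) and with isolate as replicate block (diamonds). Dashed lines mark the fold threshold of 0.6, and TXNRD1 at −1.81 stands apart from the other 8 genes.

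NFE2L2, which sets the supply of NRF2 mRNA, lies on chromosome 2 of hg19 from 178092323 to 178257425 and was measured at 209 CPM in the control library of I90-10, 229 CPM in that of I90-79, and 243 and 323 CPM in the matching knockdown libraries. The groups did not overlap, but the difference between knockdown and control was larger in I90-79 than in I90-10. The log2-fold change was 0.37 (standard error 0.17, edgeR adjusted p = 0.230), and 0.36 with the replicate block (adjusted p = 0.0318), under the fold threshold in each. RUVs put it at 0.23, and leaving out knockdown replicate 1 or 2 gave 0.56 or 0.16. Of its exonic bases 19.9% overlap other genes, among them AGPS. KEAP1, the sensor that keeps NRF2 low (chromosome 19, 10596796 to 10614417), had 78.3 and 86.3 CPM in control and 106 and 121 CPM in knockdown libraries. Its levels were thus higher in both isolates by nearly the same factor, 1.35 in I90-10 and 1.40 in I90-79. For KEAP1 the log2-fold change was 0.46 (standard error 0.12, edgeR adjusted p = 0.0838), and with the block the adjusted p was 0.00708 while the change stayed under the fold threshold.

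Among 21 further genes of the control machinery, such as cullin 3, the small MAF proteins and the related factors BACH1 and NFE2L1, 1 was up- and 1 downregulated with the block. The median log2-fold change of the list was 0.22. Over all genes tested, 6.68% were called up and 7.84% down with the block, which is the background for this list and those below. The upregulated gene was SQSTM1, whose product p62 binds KEAP1 and takes it to autophagy, with 1090.5 and 1213 CPM in control and 1942 and 2289.6 CPM in knockdown libraries. For SQSTM1 the log2-fold change was 0.88 (adjusted p = 0.0429, and 0.000446 with the block), and 22.0% of its exonic bases overlap another gene. The downregulated gene was NFE2L3, a relative of NRF2, with 104 and 64.2 CPM in control and 46.6 and 27.5 CPM in knockdown libraries (log2-fold change −1.18, adjusted p = 0.0929, and 0.000133 with the block). NFE2L3 was also lower in I90-79 than in I90-10 (log2 difference −0.73, adjusted p = 0.00696). BTRC, a subunit of a second ligase that destroys NRF2, had a log2-fold change of 0.36 (adjusted p = 0.0980).

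HMOX1 encodes haem oxygenase 1, which opens the haem ring and releases iron, and it lies on chromosome 22 of hg19 from 35776354 to 35790207. Its raw counts were 1648 and 1487 in the control and 3047 and 2207 in the knockdown libraries, or 56.1 and 40.3 CPM against 105 and 70.6 CPM. Both knockdown libraries exceeded both control libraries, and within each treatment I90-10 had more than I90-79. The level after the knockdown was 1.88 times that of control in I90-10 and 1.75 times in I90-79. The log2-fold change of 0.87 (standard error 0.25) was not called without the isolate term (edgeR adjusted p = 0.0981), and HMOX1 was upregulated with the replicate block (log2-fold change 0.86, standard error 0.10, adjusted p = 0.000520). Among all genes tested, HMOX1 ranked 1014 from the highest log2-fold change. Leaving out each library in turn gave values from 0.55, without knockdown replicate 1, to 1.13, without knockdown replicate 2.

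The median log2-fold change of 9 other genes of haem breakdown and iron storage was 0.33. With the block 1 of them was upregulated, beside 6.68% of all genes tested. The gene was FTH1, the heavy chain of the iron store ferritin, with 1929.6 and 2273 CPM in control and 3315 and 3857 CPM in knockdown libraries (log2-fold change 0.77, adjusted p = 0.0665, and 0.000752 with the block). FTH1 has many near-identical copies in the genome, 62.4% of its exonic bases overlap another gene, and 20.1% of its 50-base pieces occur in other transcripts, so its counts are uncertain. The light chain gene FTL, picked after its values were seen, had 4544 and 4085 CPM against 3694 and 3726 CPM and a log2-fold change of −0.22 (adjusted p = 0.449), with 18.5% of its 50-base pieces in other transcripts and counts as uncertain. By these counts the knockdown libraries were above the controls for the heavy chain and below them for the light chain. ABCB6, a porphyrin transporter, had a log2-fold change of 0.87 (adjusted p = 0.114) at no more than 5.09 CPM, with 54.5% of its exonic bases in other genes.

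NQO1, the quinone reductase that serves as a standard readout of NRF2 (chromosome 16, 69740899 to 69760854), stood at 396 and 467 CPM in control and 511 and 614 CPM in knockdown libraries. It was higher in both isolates, 1.29-fold in I90-10 and 1.31-fold in I90-79, for a log2-fold change of 0.38 (standard error 0.16, edgeR adjusted p = 0.205, and 0.0167 with the block), and it was 0.25 both after RUVs and without knockdown replicate 2. OSGIN1, a gene induced by oxidative stress that restrains growth (chromosome 16, 83981887 to 83999937), had raw counts of 890 and 1224 in control and 1344 and 1791 in knockdown libraries. These are 30.3 and 33.2 CPM against 46.5 and 57.3 CPM. The control libraries lay close together and both knockdown libraries were above them. The log2-fold change was 0.71 (standard error 0.15, edgeR adjusted p = 0.0501), and OSGIN1 was upregulated with the replicate block (log2-fold change 0.70, adjusted p = 0.00171). RUVs put its change at 0.60, just under the fold threshold.

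The detoxification enzymes held the highest median of the pathway lists. Of 25 genes listed 21 were tested, 6 were upregulated and 1 was downregulated with the block, and the median log2-fold change was 0.45. The aldo-keto reductase AKR1C1, which reduces carbonyls and steroids, had 85.2 and 115 CPM in control and 260 and 300.2 CPM in knockdown libraries (log2-fold change 1.49, adjusted p = 0.0175, and 6.44e-05 with the block). AKR1C2 had a log2-fold change of 1.37 (adjusted p = 0.0120) and AKR1B10 of 1.17 (adjusted p = 0.0169). The reductases resemble each other, and 24.9%, 36.0% and 14.5% of the 50-base pieces of AKR1C1, AKR1C2 and AKR1B10 occur in other genes. PTGR1, which reduces reactive alkenals, shares only 2.78% and had 97.0 and 99.8 CPM in control and 213 and 259 CPM in knockdown libraries. For PTGR1 the log2-fold change was 1.26 (adjusted p = 0.0144, and 0.000127 with the block). PIR at 0.62 and AKR1B1 at 0.74 were the other upregulated genes with the block, and the control library of I90-79 overlapped the knockdown libraries for AKR1B1. UGDH, which makes the sugar donor for glucuronidation, was the downregulated gene of the list, at 103 and 82.8 CPM in control and 35.4 and 38.5 CPM in knockdown libraries (log2-fold change −1.33, adjusted p = 0.0147, and 0.000232 with the block).

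GCLC and GCLM are the catalytic and the modifier subunit of glutamate-cysteine ligase, the rate-limiting enzyme of glutathione synthesis. GCLC (chromosome 6, 53362139 to 53481768) had 101 and 97.0 CPM in control and 77.6 and 93.2 CPM in knockdown libraries. The knockdown libraries were both lower, but in I90-79 by a factor of only 0.961. The log2-fold change was −0.21 (standard error 0.13, edgeR adjusted p = 0.341, and 0.165 with the block), and leaving out knockdown replicate 1 or 2 gave −0.089 or −0.35. GCLM (chromosome 1, 94350761 to 94374966) had 62.4 and 58.0 CPM in control and 59.6 and 72.7 CPM in knockdown libraries. It was the only member whose groups overlapped, slightly lower after the knockdown in I90-10 and higher in I90-79 (log2 −0.066 and 0.33), and opposite directions in the isolates were seen in 21.7% of all genes tested. For GCLM the log2-fold change was 0.14 (standard error 0.14, edgeR adjusted p = 0.567), and leaving out knockdown replicate 1 or 2 gave 0.27 or −0.0098.

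Of 39 other genes of glutathione synthesis and use 38 were tested, and with the block 7 were upregulated and 2 downregulated (median log2-fold change 0.18). The upregulated genes included transferases and the breakdown enzyme GGCT. Log2-fold changes were 1.15 for GGCT, 1.17 for GSTCD, 1.33 for GSTO2, 0.71 for GSTO1, 0.79 for GSTA4, 0.75 for the membrane-bound MGST1 and 0.98 for the efflux pump gene ABCC3. Without the block edgeR called none of these 7 genes. GSTO2 was scarce, at 2.38 and 4.20 CPM in control and 8.86 and 7.78 CPM in knockdown libraries. For GGCT, 16.2% of the exonic bases overlap other genes and 22.0% of the 50-base pieces occur in other genes. MGST1 had 249 and 303 CPM in control and 446 and 483 CPM in knockdown libraries (adjusted p = 0.0472, and 0.000945 with the block). The efflux pump gene ABCC5 (−0.86) and GPX8, a peroxidase of the endoplasmic reticulum (−0.88), were downregulated with the block. The cystine importer SLC7A11 and glutathione reductase GSR, both picked after their values were seen, had log2-fold changes of 0.04 (adjusted p = 0.951) and 0.20 (adjusted p = 0.370).

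TXNRD1 encodes the cytosolic thioredoxin reductase, a selenoprotein that uses NADPH to keep thioredoxin reduced, and lies on the plus strand of chromosome 12 of hg19 from 104609557 to 104744061. Its raw counts were 35310 and 43872 in the control and 8273 and 12291 in the knockdown libraries, or 1201 and 1189.7 CPM against 286 and 393 CPM. The control libraries were nearly equal and both knockdown libraries were far below them. The level after the knockdown was 0.238 of control in I90-10 and 0.331 in I90-79. The log2-fold change was −1.81 (standard error 0.20), with an edgeR adjusted p of 0.0142 that missed the threshold of 0.01, and TXNRD1 was downregulated with the replicate block (log2-fold change −1.83, standard error 0.13, adjusted p = 7.44e-05). Without control replicate 1 or 2 the adjusted p was 0.00418 and 0.00414, and without knockdown replicate 1 or 2 it was 0.0669 and 0.0505, at log2-fold changes from −2.06 to −1.61. TXNRD1 ranked 214 from the lowest of all genes tested, and before the knockdown its mean level per length was above that of every other member. Neither its exons nor its 50-base pieces are shared with another gene.

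The 3′ UTR of TXNRD1 holds 4 copies of the 6-base word GCAGTT in 1886 bases. This word is shown because an earlier account of these same libraries had found it in 3′ UTRs of genes with lower levels upon HMGB1 knockdown, so its relation to the change is no independent evidence. At least 1 copy is present in 36.2% of 12375 tested genes with a 3′ UTR of at least 100 bases, and at least 4 copies in 2.46%. The sites of TXNRD1, each 30 bases of hg19 on the plus strand with the word in capitals, are as follows.
chr12:104742605-104742634: tgaaaaacgttaGCAGTTgatttttgtcca
chr12:104742768-104742797: ctgacctgctcaGCAGTTtcttctctcata
chr12:104743514-104743543: ggcctcctgccaGCAGTTcttgaagcttct
chr12:104743740-104743769: agagcaattgagGCAGTTgaccatattcag
The bases around the word differ from site to site. GCLM holds 2 copies in 3791 bases, and NQO1, GCLC and SRXN1 hold 1 each, as shown next for the minus strand of hg19, while NFE2L2, KEAP1, HMOX1 and OSGIN1 hold 0.
GCLM chr1:94351277-94351306: gtatgttggctaGCAGTTcatccttctgca
GCLM chr1:94351081-94351110: caatgggatatgGCAGTTttatttttgaaa
GCLC chr6:53363243-53363272: cctactgtctaaGCAGTTttgtaaatgtac
NQO1 chr16:69744366-69744395: ttcaattacaaaGCAGTTactaatatgcct
SRXN1 chr20:628360-628389: gggctcaacaggGCAGTTctgctgctcaca
Over these 12375 genes the median log2-fold change was 0.07 in the 7898 genes without the word and −0.10, −0.22 and −0.31 in genes with 1, 2 and 3 copies. It was −0.33 in the 304 genes with at least 4 copies, of which 10, TXNRD1 among them, had a change at or under that of TXNRD1, as did 59 of the 7898 genes without the word. A longer 3′ UTR has more room for copies, and the genes were not matched by 3′ UTR length. In these medians the word and the length of the 3′ UTR therefore cannot be told apart. The 3′ UTR of HMGB1 itself holds 3 copies, and whether the word plays a part in the level of any member was not tested.

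**Figure D3:**
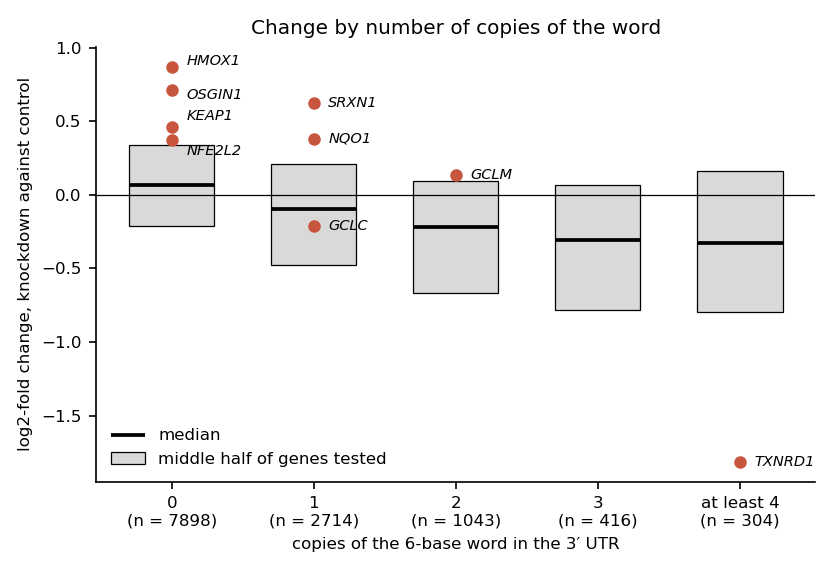
Log2-fold change, knockdown against control, by the number of copies of the 6-base word in the 3′ UTR, with grey boxes from the lower to the upper quartile of the 12375 tested genes with a 3′ UTR of at least 100 bases, thick lines at the medians and red points for the 9 members. The medians go from 0.07 with 0 copies to −0.33 with at least 4, and TXNRD1 at −1.81 lies far under its box, GCLC lies within its box and the other 7 members lie above theirs. The genes were not matched by 3′ UTR length.

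SRXN1 encodes sulfiredoxin, which repairs overoxidised peroxiredoxins (chromosome 20, 627259 to 634014). It had the fewest reads of the members, with raw counts of 161 and 257 in control and 210 and 374 in knockdown libraries, or 5.48 and 6.97 CPM against 7.27 and 11.97 CPM. The groups did not overlap, but the gap between the higher control and the lower knockdown library was small. The log2-fold change was 0.63 (standard error 0.30, edgeR adjusted p = 0.240, and 0.0306 with the block), and it was 0.34 after RUVs and ranged from 0.23, without knockdown replicate 2, to 0.94 when a library was left out. A readthrough gene covers 85.0% of the exonic bases of SRXN1 on the same strand and 90.6% of its 50-base pieces occur in other transcripts, so the number of reads counted on SRXN1 is uncertain.

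Of 18 other genes of the thioredoxin and peroxiredoxin systems, 2 were upregulated and 4 downregulated with the block, and the median log2-fold change was −0.09. The shares over all genes tested were 6.68% and 7.84%. TXN, the thioredoxin that TXNRD1 reduces, had 392 and 396 CPM in control and 700 and 752 CPM in knockdown libraries. For TXN the log2-fold change was 0.88 (adjusted p = 0.0251, and 0.000418 with the block), and the reductase and its substrate thus moved in opposite directions. TXNIP, which binds and inhibits thioredoxin, had 386 and 294 CPM in control and 156 and 162 CPM in knockdown libraries (log2-fold change −1.10, adjusted p = 0.0265, and 0.000491 with the block). Of the enzymes that repair oxidised methionine, MSRA was upregulated with the block (log2-fold change 1.12) and MSRB3 downregulated (−1.27). The sestrins SESN2 (−0.78) and SESN3 (−2.18) were downregulated with the block. SESN3 was scarce, at 12.995 and 4.37 CPM in control and 2.98 and 0.864 CPM in knockdown libraries, and lower in I90-79 under both treatments.

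NADPH feeds both the glutathione and the thioredoxin system. Of 12 genes that supply it, 4 were upregulated and 2 downregulated with the block (median log2-fold change 0.15). Malic enzyme ME1 had 92.1 and 82.2 CPM in control and 182 and 189 CPM in knockdown libraries (log2-fold change 1.09, adjusted p = 0.0142, and 0.000207 with the block). TKT of the pentose phosphate pathway (0.71) and the folate enzyme MTHFD1 (0.61) were also upregulated with the block, whereas the mitochondrial enzymes IDH2 (−0.95) and MTHFD2 (−0.90, with 33.2% of its exonic bases in other genes) were downregulated. Among 8 genes for the removal of superoxide and peroxide, SELENOW (0.62) was upregulated with the block, and CCS (−0.60) and the mitochondrial superoxide dismutase SOD2 (−0.61) were downregulated. Of all genes tested, 6.68% were called up and 7.84% down with the block. SOD2 had 1739 and 2099 CPM in control and 1112 and 1399.6 CPM in knockdown libraries (adjusted p = 0.117, and 0.00213 with the block).

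Over these 7 lists of the pathway, which hold 132 genes besides the members, 127 genes were tested. Without the block 0 were called by edgeR and 25 by DESeq2, while the unadjusted p was below 0.05 in 53, beside 28.3% of all genes tested for the unadjusted p and, for DESeq2, 11.3% of the 13606 genes to which it gave an adjusted p. With the block 22 were upregulated and 12 downregulated, or 17.3% and 9.45% of the genes tested, beside 6.68% and 7.84% over all genes, and the median log2-fold change was 0.18. The 3 remaining lists were set beside them for comparison. Metallothioneins, small proteins that bind zinc and copper, were higher in both isolates in 7 of 7 genes tested, beside 38.9% of all genes. Their median log2-fold change was 2.42, and 1 was called without the block and 6 with it. MT1A, MT1G and MT1M had enough reads to be tested only through their knockdown libraries. The direction of these genes was thus set by the filter, and the count and the median are no independent evidence of a rise. The gene called without the block was MT1G, with 0 and 1 counts in control and 204 and 240 counts in knockdown libraries. MT2A had 558 and 1222 CPM in control and 2321 and 2726 CPM in knockdown libraries (log2-fold change 1.50, adjusted p = 0.0760, and 0.000637 with the block). Of 11 heat shock genes 2 were upregulated with the block, DNAJA1 at 0.60 and HSPE1 at 0.62 (median 0.38). Of 14 targets of ATF4, the factor of the amino acid response, 3 were upregulated and 5 downregulated with the block (median −0.16), with SHMT2 at 1.52 and PSAT1 at −1.01 as the extremes.

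**Figure D4:**
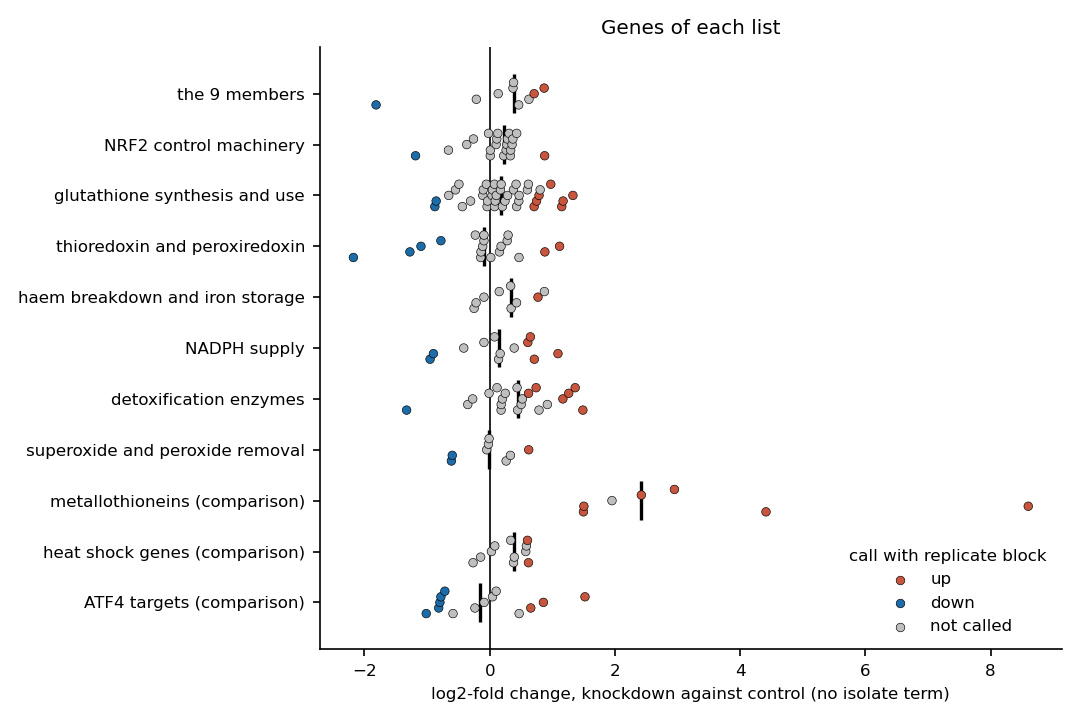
Log2-fold change of each gene tested, knockdown against control without an isolate term, in the 9 members, 7 further lists of the pathway and 3 comparison lists (rows), with thick lines at the medians. Points are coloured by the call with the replicate block, red for up and blue for down, and the medians run from −0.16 in the ATF4 targets over 0.45 in the detoxification enzymes to 2.42 in the metallothioneins, whose rightmost point is MT1G, with a position that depends on the prior of the test. MT1A, MT1G and MT1M had enough reads to be tested only through their knockdown libraries.

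Within the isolates, 6 members were higher after the knockdown in both and 2 were lower in both, where 38.9% of all genes tested were higher in both and 39.4% were lower in both. TXNRD1 changed by −2.07 on the log2 scale in I90-10 and by −1.60 in I90-79, HMOX1 by 0.91 and 0.81, and OSGIN1 by 0.62 and 0.79. NFE2L2 (0.22 and 0.50) and SRXN1 (0.41 and 0.78) had the larger values in I90-79, and GCLC was lower mainly in I90-10 (−0.38 and −0.06). With 1 library of each kind in an isolate, differences between the isolates in these values were not tested. The levels of the isolates were compared with the treatment held fixed, and 0 of the 9 members were called by edgeR or DESeq2, where edgeR called 1.67% of all genes. An unadjusted p below 0.05 was found in 4 members and in 22.2% of all genes. HMOX1 had the smallest p of the members, with a log2 difference of −0.53 for I90-79 against I90-10 (standard error 0.10, edgeR adjusted p = 0.0204). Of the 12 fibroblast markers 7 were called between the isolates, all lower in I90-79. The fitted differences of the other 8 members, none of which was called, lay between 0.09 for GCLM and 0.54 for SRXN1 on the log2 scale. For GCLM, GCLC and TXNRD1 the control library of I90-79 was slightly below the control library of I90-10. The knockdown library of I90-79 was above the knockdown library of I90-10.

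**Figure D5:**
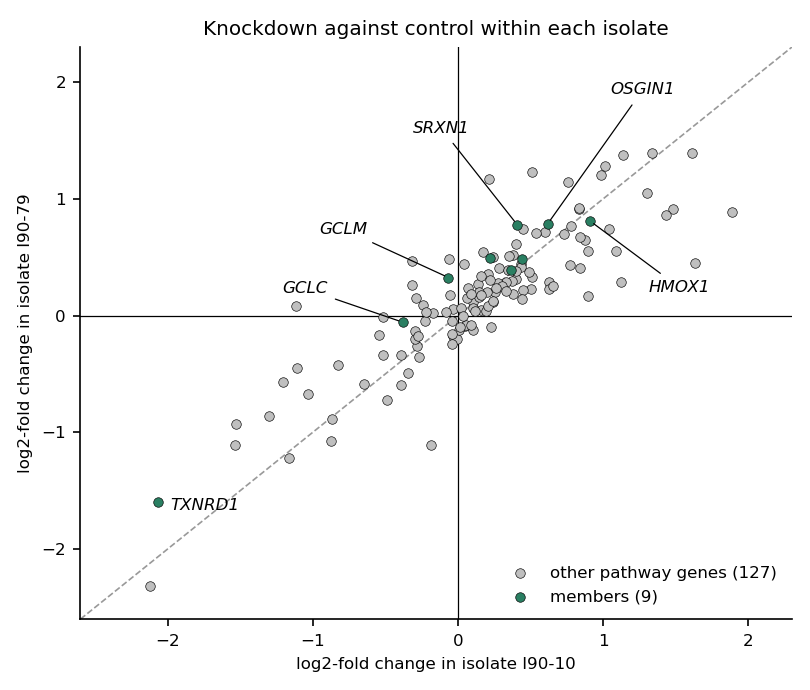
Log2-fold change, knockdown against control, in isolate I90-79 (vertical axis) against I90-10 (horizontal axis) for the 9 members (green) and 127 other genes of the pathway (grey), with a dashed line where both are equal. TXNRD1 lies at −2.07 and −1.60, and GCLM, at −0.066 and 0.33, is the member on opposite sides of 0.

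To compare the levels of different genes, counts were scaled by gene length to TPM, in which the values of a library are given relative to the sum of its length-corrected counts. In control cells TXNRD1 led with 756 ± 10.1 TPM (mean ± SD, n = 2, here and for the values that follow), before NQO1 with 561 ± 76.8 and NFE2L2 with 157 ± 13.5. KEAP1 (92.6 ± 8.18) and HMOX1 (84.5 ± 17.9) came next and overlapped. GCLC (49.4 ± 0.449), GCLM (47.3 ± 1.48) and OSGIN1 (38.8 ± 3.30) were close to each other without overlap, and SRXN1 had 9.77 ± 1.85 TPM, a value whose place in the order is uncertain because most of its exonic bases are shared with the readthrough gene. After the knockdown NQO1 was first with 694 ± 109 TPM, and TXNRD1 (204 ± 51.0) overlapped NFE2L2 (193 ± 43.7). HMOX1, at 146 ± 36.98 TPM, stood between NFE2L2 and KEAP1 (121 ± 14.5) and overlapped both. OSGIN1 (60.2 ± 10.5), GCLM (49.4 ± 8.24) and GCLC (40.5 ± 6.34) followed, each overlapping its neighbour, and SRXN1 had 14.4 ± 5.33 TPM with the same limit.

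Promoter sequences were read to see which members carry the core of the antioxidant response element close to a start site. RefSeq promoters of 300 bases, from 250 bases before to 50 bases after the start (GRCh38.p14), were at hand for 8 of the 9 members, and HMOX1 was not among them. The core TGACNNNGC, searched on both strands, occurs in 13.3% of 35116 promoters of this length, and the AP-1 site TGACTCA in 4.95%. The core was found in GCLM, in both listed promoters of TXNRD1 and in 1 of 2 listed promoters of KEAP1, and these promoters are printed or described because their genes moved differently. No core of these letters lies in the windows of NFE2L2, NQO1, GCLC, SRXN1 and OSGIN1, and OSGIN1 has the AP-1 site at position −97. The TXNRD1 promoters (plus strand) and the GCLM promoter (minus strand) are given 5′ to 3′ along the gene, with the core in capitals.
TXNRD1 chr12:104215529-104215828: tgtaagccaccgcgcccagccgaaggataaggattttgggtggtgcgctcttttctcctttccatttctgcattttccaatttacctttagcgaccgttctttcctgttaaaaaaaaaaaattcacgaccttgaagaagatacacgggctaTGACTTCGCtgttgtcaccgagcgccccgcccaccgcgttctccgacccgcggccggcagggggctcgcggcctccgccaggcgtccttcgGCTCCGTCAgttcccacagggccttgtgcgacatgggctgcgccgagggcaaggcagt
TXNRD1 chr12:104286782-104287081: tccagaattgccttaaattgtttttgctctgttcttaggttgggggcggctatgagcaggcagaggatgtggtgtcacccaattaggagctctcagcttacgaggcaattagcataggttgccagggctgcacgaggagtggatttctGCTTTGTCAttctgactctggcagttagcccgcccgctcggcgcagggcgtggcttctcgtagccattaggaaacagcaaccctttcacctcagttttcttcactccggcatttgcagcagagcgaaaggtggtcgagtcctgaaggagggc
GCLM chr1:93909381-93909680: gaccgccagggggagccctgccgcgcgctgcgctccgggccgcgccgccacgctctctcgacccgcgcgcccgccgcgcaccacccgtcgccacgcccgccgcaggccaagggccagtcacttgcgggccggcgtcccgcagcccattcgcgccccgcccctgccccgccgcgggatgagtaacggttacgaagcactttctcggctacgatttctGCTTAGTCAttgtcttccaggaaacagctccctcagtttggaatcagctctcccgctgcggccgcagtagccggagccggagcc
In the upstream promoter of TXNRD1 the core reads TGACTTCGC at position −99 (the match counted from its left end, −1 being the base before the start) and, on the other strand, TGACGGAGC at −8, and in the downstream promoter it reads TGACAAAGC at −102 on the other strand. GCLM holds TGACTAAGC at −34 on the other strand. KEAP1 holds the same TGACTAAGC at −31 on the other strand, and TGACACGGC at −54. None of these cores overlaps an AP-1 site. Of the members with a core in these windows, TXNRD1 was downregulated with the block, and GCLM and KEAP1 were not called. Of those without a core of these letters in the windows, OSGIN1 was upregulated with the block, and NFE2L2, NQO1, GCLC and SRXN1 were not called. Bases outside the windows were not searched, so an element further from the start site would not have been seen. A match to these letters is a description of the sequence, and binding was not measured.

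Genes with the most similar pattern over the 4 libraries were listed for HMOX1 and NFE2L2, by the root mean square difference of log2 CPM after centring each gene, with a mean of 1 CPM as the lower limit. For HMOX1 these included PCDH10 (0.0280), RAB3IL1, AKR1C3 and USP51 (0.0590), and for NFE2L2 they were ZNF584-DT (0.00989), GOLGA4, MRNIP, RPS6KA3 and EXOC8 (0.0272). AKR1C3 belongs to the detoxification list. Of the members, NQO1 (0.0639) and KEAP1 (0.0937) came closest to NFE2L2, while those closest to HMOX1, OSGIN1 (0.386) and KEAP1 (0.400), were much further away. With 4 libraries many genes can take on any given pattern, and no test was made.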

How the data were processed

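RNA-seq was measured in 4 IMR90 libraries. The authors selected poly(A) RNA, aligned read pairs to hg19 (STAR), assigned uniquely mapped reads to genes (featureCounts), and deposited raw counts per gene without normalization. Tool versions, the strand setting and the counting of pairs are not given in the sources used here. Symbols were matched for 55665 gene IDs, and SOD2 and TXNIP by coordinates. Counts were tested with edgeR 4.0.16 (R 4.3.3, limma 3.58.1) by the quasi-likelihood test after filterByExpr and TMM scaling, on 15398 genes, with the Benjamini-Hochberg adjustment. Both isolates occur in each group, so replicate numbers pair the libraries (the differences between isolates in control and knockdown libraries correlated at 0.46 over the 15398 genes tested, a description only), and values from a model with isolate as replicate block are given beside the results. Alternatives were DESeq2 1.42.0 with and without the block, RUVs with 1 factor, DESeq2 size factors, library totals, no filter, at least 10 counts in every library, other thresholds and leaving out each library. TPM used the deposited gene lengths. Shared exons and 50-base pieces, and 3′ UTRs, come from GENCODE on hg19. The text names the 9 members, HMGB1, every gene of a list called in either fit and the 2 or 3 genes of smallest p per list, with exceptions marked, and some genes that the rule takes are not reported here. Members, lists and the 6-base word were chosen with earlier results of these data known.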

Additional observations from a re-analysis of the deposited data

Results flagged for a closer look

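GCLM moved in opposite directions in the isolates, with a log2-fold change of −0.066 in I90-10 and 0.33 in I90-79. Each value compares 1 knockdown with 1 control library, and the difference between them was not tested.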

How the results depend on the processing

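Over all genes, 10 were up- and 21 downregulated without an isolate term. The counts were 1028 and 1207 with the replicate block, 725 and 817 with DESeq2, 967 and 1091 with DESeq2 and the block, 767 and 831 with RUVs, 31 and 98 with library totals, 1118 and 1275 with no filter, and 575 and 668 at an adjusted p below 0.05. With at least 10 counts in every library 6 were upregulated. Leaving out each library gave 0 to 305 and 0 to 337, with 0 in both directions without either knockdown library. Of the members, 0 were up- and 0 downregulated without the isolate term, 2 and 1 with the replicate block, with DESeq2 and the block and with no filter, and 1 and 1 with DESeq2 and with RUVs. At an adjusted p below 0.05, 1 member was downregulated, and leaving out each library gave 0 upregulated and 0 to 1 downregulated. The median log2-fold change of the members was 0.25 with RUVs and 0.23 to 0.55 when a library was left out. HMGB1 lay between −3.77 and −3.38 without 1 library, at adjusted p of 0.0497 and 0.0324 without knockdown replicate 1 and 2. GCLM lay between −0.0098 and 0.27 without 1 library, the reversal being without knockdown replicate 2, and the other 8 members kept their direction in every alternative run. The block changed the calls of HMOX1, OSGIN1 and TXNRD1 and of no other member. Where a library was left out, the lone library of its group was taken to vary like the other group. For the comparison of isolates no library could be left out, since no residual degrees of freedom remain. Counting error is small for the members, except SRXN1 with 161 to 374 counts. The causes of these shifts were not tested.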
